A study of Homo sapiens with 12 samples.

Results

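The HSP70, HSP90, small HSP and DNAJ chaperones were described here across naive and primed human embryonic stem cells. Members were chosen by gene symbol: the numbered HSPA, HSPB, HSP90, DNAJA, DNAJB and DNAJC genes, together with HSPD1, HSPE1, HSPH1, BAG3 and HSF1, with 1 DNAJC symbol left out by the rule. The rule found 75 of the 23613 gene symbols kept. They comprised 15 HSPA, 5 HSP90, 8 HSPB, 4 DNAJA, 13 DNAJB and 25 DNAJC symbols and the 5 genes named singly. The rule itself uses no measured value, but it was set with earlier results of these data known. RNA from manually picked colonies was sequenced in 12 libraries, in 4 groups of 3, to compare the naive with the primed state. Naive H9 (passage 27 to 31) and naive RUES2 (passage 24 to 26) cells were grown with 5 mM glucose, 20 ng/mL human LIF, 18 µg/mL insulin, 1 µM PD0325901 (a MEK inhibitor) and 3 µM CHIR99021 (a GSK3 inhibitor). Primed H9 (passage 31 to 35) and primed RUES2 (passage 30 to 33) cells were grown on mouse embryonic fibroblasts treated with mitomycin C, in knockout serum replacement with 4 ng/mL bFGF. H9 and RUES2 are established human embryonic stem cell lines, and no group carried an introduced transgene by the labels. The states therefore differed in medium, inhibitors, growth factor, feeder layer and passaging at once, and the parts of these in a difference cannot be told apart. The 3 libraries per group are described as biological replicates. Since nothing tells whether they came from independent cultures, the p-values cover no more than the variation among these libraries.

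Molecular chaperones bind unfolded or partly folded proteins and help them fold, assemble, cross membranes or be degraded. HSP70 proteins (the HSPA genes) bind and release short hydrophobic stretches in a cycle driven by ATP. DNAJ proteins bring substrates to HSP70 and start ATP hydrolysis through their J domain, whereas nucleotide exchange factors such as HSPH1 and BAG3 let the substrate go. HSP90 acts later on kinases, receptors and other clients. Small HSPs (most of the HSPB genes) hold unfolding proteins without ATP, and HSPD1 with HSPE1 forms the folding chamber of mitochondria. HSF1 is the transcription factor that raises many of these genes in heat shock, and the unfolded protein response raises those of the endoplasmic reticulum (ER). Pluripotent stem cells are known for high basal levels of several cytosolic chaperones.

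Values were FPKM, fragment numbers scaled by transcript length and by library size, which sum to 762869 to 992404 per library. Entries for short RNAs took 35.6 to 50.3% of that sum, and 12681 to 13592 genes reached 1 FPKM. The number of reads was not given, and relative depth estimated from the confidence bounds of the deposited values, read as 2 SD of a counting error, spanned a 2.30-fold range. In a check with genotype-dependent genes, 3 of the 12 libraries, and 0 of the 6 labelled H9, did not match their line label. The H9 comparison does not use those libraries other than for the estimate of spread, and fitted with the 6 H9 libraries alone it gave 15 higher and 7 lower members in place of 18 and 10. The state comparison in libraries labelled RUES2, its difference from that in H9 and the naive line comparison rest on the mismatched libraries throughout, and in them line and state cannot be told apart. The primed line comparison uses them only for the estimate of spread. Groups are called as labelled, and "both comparisons" means the 2 state comparisons so labelled, not a finding in 2 lines. All 10 pluripotency genes of a fixed list, among them POU5F1, SOX2 and LIN28A, were expressed, with summed levels of 1268 to 1321 FPKM in naive H9, 2060 to 2457 FPKM in primed H9, 1365 to 1671 FPKM in naive RUES2 and 1978 to 2408 FPKM in primed RUES2. Of these 10, 0 were higher and 6 lower in naive H9, and 1 higher and 9 lower in naive libraries labelled RUES2. The 1 higher was NANOG, which averaged 300 FPKM in naive and 50.8 FPKM in primed libraries labelled RUES2. Fibroblast genes moved with the state as well: of a list of 12, all expressed and none listed at 0 in every library of a group, 7 were higher and 1 lower in naive libraries in each of the 2 state comparisons. Their summed level was 883 to 1158 FPKM in naive H9 and 418 to 906 FPKM in primed H9, and 608 to 1822 FPKM in naive libraries labelled RUES2 and 382 to 661 FPKM in the primed ones. By gene, the log2 differences, naive minus primed, ran from −2.33 (THY1) to 5.74 (COL3A1) in H9, with a median of 1.73. In libraries labelled RUES2 they ran from −2.62 (THY1) to 6.37 (COL3A1), with a median of 1.495. COL3A1 averaged 161 FPKM in naive and 2.51 FPKM in primed H9, and LUM 43.1 FPKM and 0.624 FPKM. TAGLN, a large part of the sum, averaged 127 FPKM in naive and 301 FPKM in primed H9 and was not called. The part of that list in the chaperone results was not tested. In bulk samples, fewer cells of a type and less RNA per cell cannot be told apart.

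The stress-response elements in the promoters of the most abundant members are shown because 8 of the 12 members that average at least 100 FPKM hold one. The like share among other genes of that level was not computed. RefSeq promoter windows on GRCh38.p14, from 250 bases before to 50 after a gene's start, existed for 63 of the 75 members (82 windows in all). A strict heat shock element, GAANNTTCNNGAA or TTCNNGAANNTTC, which pair with each other on the opposite strand, was present in 8.54% of the members' windows, in 7 members, against 0.49% of all 35116 windows. The ER stress response element, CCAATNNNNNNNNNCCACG or its reverse complement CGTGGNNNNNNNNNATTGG, was present in 2.44% of the members' windows, in HSPA5 and HSP90B1, against 0.0769% of all windows. Each line reads 5′ to 3′ on the gene's strand, and capitals mark the motif's fixed bases.
HSPA8, chr11:123062342-123062378 (minus strand): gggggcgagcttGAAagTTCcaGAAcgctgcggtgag
HSPA8, chr11:123062167-123062203 (minus strand): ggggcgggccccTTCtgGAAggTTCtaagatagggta
HSP90AA1, chr14:102087108-102087144 (minus strand): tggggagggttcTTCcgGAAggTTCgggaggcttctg
HSP90AB1, chr6:44247819-44247855 (plus strand): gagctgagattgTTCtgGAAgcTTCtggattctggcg
HSPD1, chr2:197500056-197500090 (minus strand): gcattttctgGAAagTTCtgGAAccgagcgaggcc
DNAJB6, chr7:157336861-157336897 (plus strand): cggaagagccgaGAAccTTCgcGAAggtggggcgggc
DNAJA1, chr9:33025276-33025288 (plus strand): GAActTTCcaGAA
HSPA5, chr9:125241379-125241421 (minus strand): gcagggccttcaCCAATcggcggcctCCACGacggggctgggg
HSP90B1, chr12:103930204-103930246 (plus strand): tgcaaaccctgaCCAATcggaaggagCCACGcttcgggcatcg
HSP90B1, chr12:103930309-103930351 (plus strand): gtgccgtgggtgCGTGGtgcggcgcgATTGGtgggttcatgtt
The DNAJA1 match began 4 bases after the start, while those of the other members began before it, at 55 and 230 bases in HSPA8 and at 66 bases in HSPA5. Not shown are a further heat shock element of HSP90AB1, 165 bases before the start, and an overlapping match of HSPD1, 245 bases before it. HSPA6 also held a heat shock element, although it reached at most 0.295 FPKM in any library. A match is a match of letters and shows no binding.

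A few abundant chaperones made up most of the members' RNA. The 75 members summed to 6141 ± 114 FPKM in naive H9 and 5373 ± 427 FPKM in primed H9, and to 6392 ± 384 FPKM in naive libraries labelled RUES2 and 5469 ± 460 FPKM in the primed ones (SD, n = 3 each). The naive sums lay above the primed ones in both comparisons. In libraries labelled RUES2 they did so narrowly, at 5999 FPKM for the lowest naive and 5963 FPKM for the highest primed library. The members held 1.32 to 1.34% of the FPKM outside short RNAs in naive H9 and 1.04 to 1.22% in primed H9. In libraries labelled RUES2 they held 1.21 to 1.30% in naive and 1.09 to 1.22% in primed ones. As such shares, the states overlapped in libraries labelled RUES2 and not in H9. Over all 12 libraries, 12 members averaged at least 100 FPKM and held 84.2% of the summed level, 24 averaged 10 to 100 FPKM, 28 averaged 1 to 10 FPKM and 11 stayed under 1 FPKM. The order by mean level was HSPA8 (1098 FPKM), HSP90AB1 (1085 FPKM), HSP90AA1 (621 FPKM), HSPD1 (539 FPKM), HSP90B1 (400.1 FPKM), HSPE1 (324 FPKM), HSPA5 (193 FPKM), HSPA9 (171 FPKM), DNAJA1 (163 FPKM), DNAJB6 (111 FPKM), HSPB1 (109.8 FPKM) and HSPA4 (109 FPKM). The first 2 exchanged places between groups, and the last 3 lay within the spread of each other. HSPA8 and HSP90AB1 stood above 99.26 and 99.25% of the 14428 genes tested. At the other end, DNAJB3 and DNAJB8 were listed at 0 in every library, and HSPA6, HSPA7, HSPB3, HSPB9 and DNAJB13 never reached 1 FPKM. The minimum of 1 FPKM in 3 libraries left 66 members to test, since HSPA12A (0.71 to 1.23 FPKM) and HSPB7 (at most 1.07 FPKM) also missed it.

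**Figure D1:**
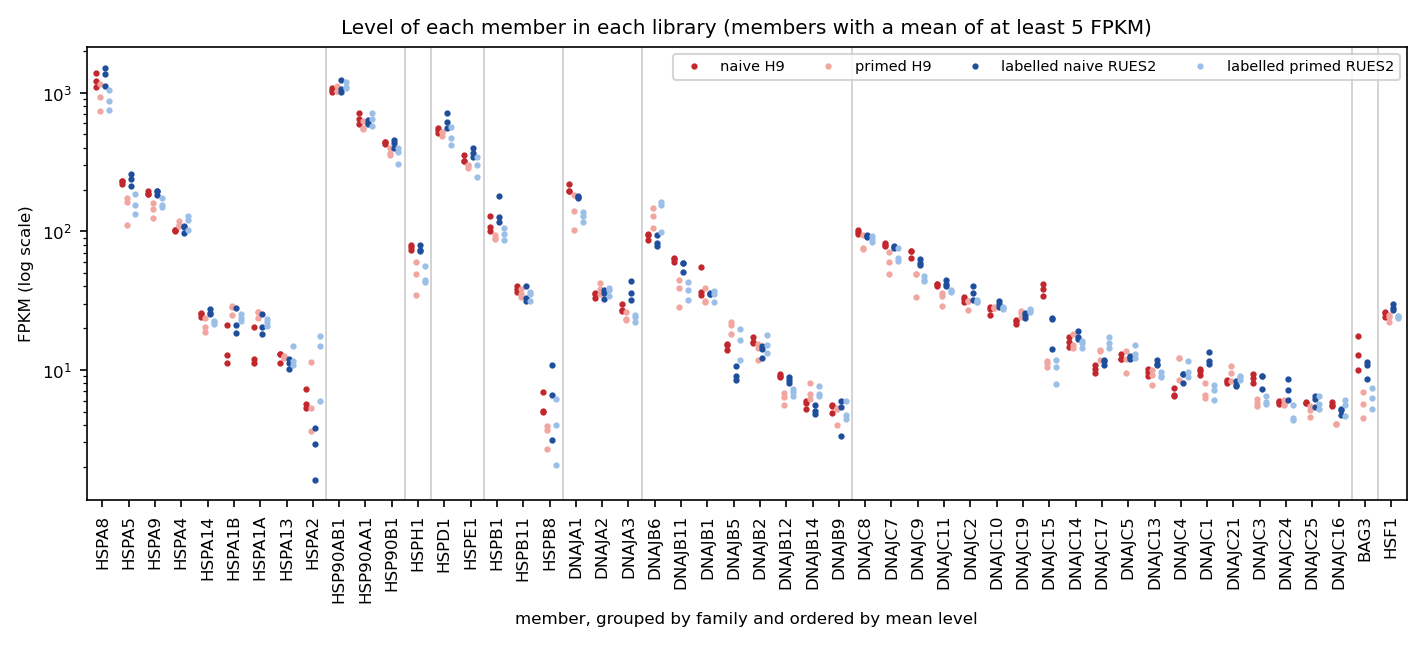
FPKM of each member with a mean of at least 5 FPKM in each of the 12 libraries, on a log axis, grouped by family; each point is a library. HSPA8 and HSP90AB1 lie between 743 and 1517 FPKM in all 4 groups, and DNAJC15, BAG3 and HSPH1 show naive points above primed points in both comparisons.

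In H9, 18 of the 66 tested members were higher and 10 lower in naive than in primed cells, which is 42.4% called. The background was 44.3% of the 14428 genes tested, with 20.4% higher and 23.9% lower, and the members' share called was close to it. By direction, 27.3% of members were higher and 15.2% lower, and their median log2 difference, naive minus primed, was 0.13 against −0.01 over all genes. In the libraries labelled RUES2, 22 members were higher and 10 lower in naive cells, 48.5% called against 46.8% of all genes (23.1% higher and 23.6% lower). There the median was 0.09 for members and 0.01 for all genes. Without pseudogenes and near-identical copies, HSPA1A, HSPA1B and HSPA1L among them, 61 members were tested. Of these, 18 were higher and 7 lower in naive H9 (41% called). In naive libraries labelled RUES2, 22 were higher and 10 lower (52.5% called). Scaling to an equal sum without short RNAs gave 14 higher and 12 lower members in the libraries labelled RUES2, and 18 higher and 7 lower in H9. Calls here are adjusted p-values under 0.05 from limma on log2(FPKM + 1), adjusted over all genes tested, and log2 differences on that scale understate the change of low genes.

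**Figure D2:**
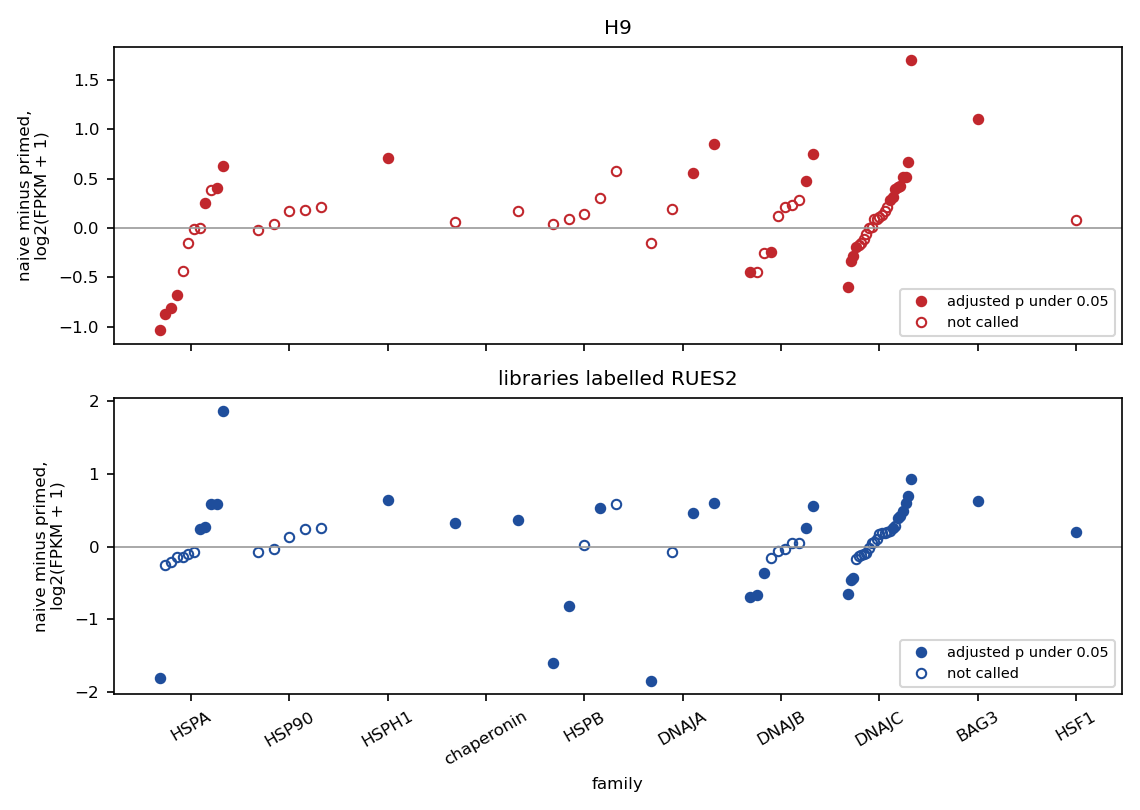
Naive minus primed difference on the log2(FPKM + 1) scale for each of the 66 tested members by family, in H9 (top) and in libraries labelled RUES2 (bottom); filled points have an adjusted p under 0.05. All 5 HSP90 symbols are open and lie between −0.07 and 0.26 in both panels, while the HSPA and DNAJ families spread to both sides of 0.

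Counts by family stand beside the shares over all genes given above, and no test compared the families. Of 12 tested HSPA members, 3 were higher and 4 lower in naive H9, and 5 higher and 1 lower in naive libraries labelled RUES2. The 4 lower in H9 were HSPA12B and the neighbouring copies HSPA1A, HSPA1B and HSPA1L, which are not separate observations. That count of 5 fell to 1 without naive replicate 1 or primed replicate 2 of RUES2 (with 2 lower in the second case), to 2 without naive replicate 2 or primed replicate 1, and to 3 without naive replicate 3. Among 25 DNAJC members, 9 were higher and 4 lower in naive H9, and 7 higher and 3 lower in the naive libraries labelled RUES2. The 4 lower in H9 fell to 1 without naive H9 replicate 1 and to 2 without naive replicate 2 or 3 or primed replicate 1, and the 7 fell to 4 without primed RUES2 replicate 3. DNAJB had 2 higher and 2 lower of 10 in H9 and 2 higher and 3 lower in the libraries labelled RUES2, and DNAJA had 2 higher of 4 in H9 and 2 higher and 1 lower in the libraries labelled RUES2. Over the left-out libraries the DNAJB counts were 0 to 3 lower in H9 and 0 to 2 higher in libraries labelled RUES2, and those of DNAJA 1 to 2 higher in each. None of the 5 HSP90 symbols passed limma's test in either comparison with the settings used throughout. At an unadjusted p under 0.05 the count was 0 in H9 and 2 in the libraries labelled RUES2, HSP90B1 and its pseudogene HSP90B2P. Under other settings these 2 did pass in libraries labelled RUES2: HSP90B1 with a replicate block (adjusted p = 0.0364), without naive replicate 2 (0.0458) or primed replicate 3 (0.0264), and HSP90B2P with a pseudocount of 0.1 (0.0496), with no variance trend (0.045) or without primed replicate 3 (0.0347). HSP90B1 also passed in H9 without primed RUES2 replicate 2 (adjusted p = 0.0397).

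Across both comparisons, 12 members were higher in naive cells in each, 66.7% of those higher in H9 and 54.5% of those higher in the libraries labelled RUES2. Lower in each were 3 members, 30% of either list. The like shares over all genes are not given here, so this overlap is not read as particular to the members. DNAJA4 went opposite ways, 28 members were called in 1 comparison only and 22 in neither. No library is shared by the 2 comparisons. Calls for DNAJC15, DNAJC3 and HSPH1 held in both under each alternative run, leaving out each library included.

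**Figure D3:**
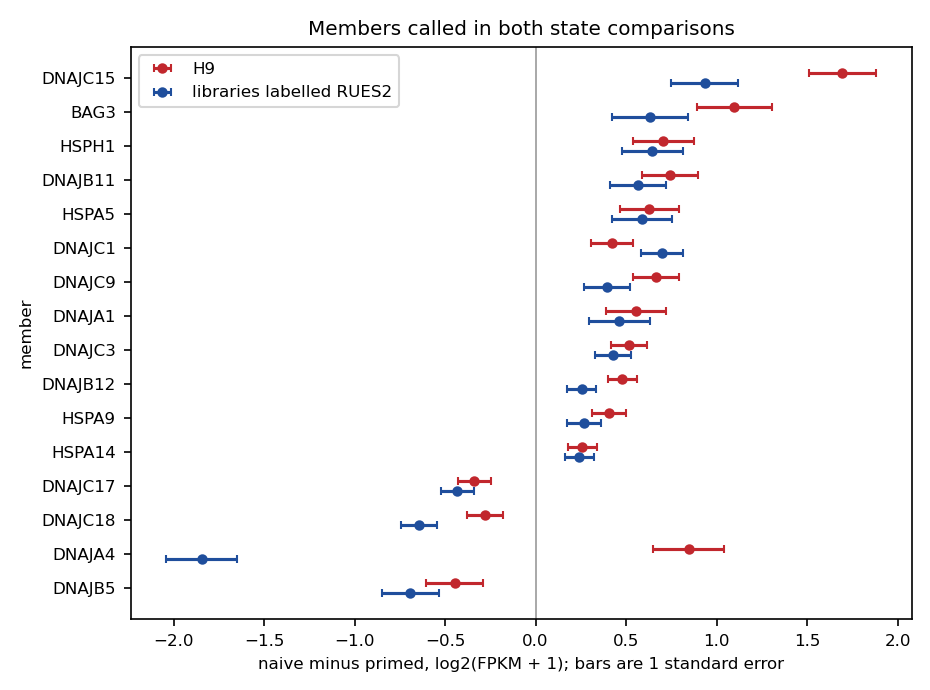
Naive minus primed difference on the log2(FPKM + 1) scale, with 1 standard error, for the 16 members called in both state comparisons, in H9 and in libraries labelled RUES2. DNAJC15 has the highest value in each comparison among them (1.70 and 0.93), and DNAJA4 lies at 0.85 in H9 and −1.85 in libraries labelled RUES2.

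The cytosolic HSP90 genes were not called between states in any setting run. HSP90AB1, the constitutive cytosolic HSP90, had 1013, 1074 and 1049 FPKM in naive H9 and 1029, 1124 and 1032 FPKM in primed H9. In libraries labelled RUES2 it had 1071, 1225 and 1018 FPKM in naive and 1094, 1086 and 1201 FPKM in primed cells. All groups overlapped, and the log2 difference was −0.02 ± 0.09 (SE) in H9 (adjusted p = 0.866) and −0.03 ± 0.09 in libraries labelled RUES2 (adjusted p = 0.80). HSP90AA1, the stress-inducible cytosolic form, averaged 649 ± 56.6 FPKM in naive and 576 ± 43.4 FPKM in primed H9, and 614 ± 19.5 FPKM in naive and 647 ± 66.9 FPKM in primed libraries labelled RUES2 (SD, n = 3 each), again without a call. Reads of HSP90AB4P and HSP90B2P cannot be separated with certainty from their parent genes, so their values are uncertain.

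Of the cytosolic HSP70 machinery, the exchange factors BAG3 and HSPH1 were higher in naive cells in both comparisons as labelled. BAG3, which links HSP70 to autophagy and is a classical HSF1 target, had 12.9, 9.92 and 17.7 FPKM in naive H9 and 4.47, 6.92 and 5.65 FPKM in primed H9. It had 10.9, 8.54 and 11.4 FPKM in naive and 6.26, 5.19 and 7.41 FPKM in primed libraries labelled RUES2. Each naive library lay above each primed one within a comparison. BAG3 was higher by 1.10 ± 0.21 (log2, SE) in naive H9 (limma adjusted p = 0.00189) and by 0.63 ± 0.21 in naive libraries labelled RUES2 (adjusted p = 0.0293). The second call was lost, at adjusted p-values of 0.0672 to 0.0981, without naive replicate 1 or 3 or primed replicate 1 or 2 of RUES2. HSPH1, an HSP110 exchange factor that also holds unfolded proteins, had 73.9, 77 and 80.3 FPKM in naive H9 and 49.6, 59.7 and 34.6 FPKM in primed H9. It had 73.3, 79.1 and 72.5 FPKM in naive and 44.3, 43.3 and 56 FPKM in primed libraries labelled RUES2. The naive libraries kept to a narrow band in both comparisons, and HSPH1 was higher there by 0.71 ± 0.17 (adjusted p = 0.00664) and 0.65 ± 0.17 (adjusted p = 0.00965). BAG3's closest non-members by Pearson correlation of log2 level over the 12 libraries were ALPK2 (0.979), COLEC12 (0.977) and PMP22 (0.976), as a description of libraries that share groups.

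HSPA8, the constitutive HSP70 of the cytosol, had 1207, 1092 and 1376 FPKM in naive H9 and 938, 1157 and 743 FPKM in primed H9. In libraries labelled RUES2 it had 1353, 1517 and 1125 FPKM in naive and 755, 866 and 1043 FPKM in primed cells. The groups overlapped in H9 and did not in the libraries labelled RUES2. The difference was 0.39 ± 0.18 in H9 (limma adjusted p = 0.11) and 0.59 ± 0.18 in libraries labelled RUES2 (adjusted p = 0.0238), and the second call was lost without naive replicate 1 or 2 or primed replicate 1 or 2 of RUES2 (adjusted p = 0.0575 to 0.0904). HSPA14, a ribosome-associated HSP70, had 24.2, 25.8 and 25.2 FPKM in naive and 20.3, 23.7 and 18.7 FPKM in primed H9, and 25.8, 27.3 and 25.4 FPKM in naive and 22.6, 21.3 and 22 FPKM in primed libraries labelled RUES2. It was higher in the naive state by 0.26 ± 0.08 (adjusted p = 0.0259) and 0.24 ± 0.08 (adjusted p = 0.0325). Both calls were lost in several alternatives, in H9 in 5 of 21, without naive replicate 2 or 3 or primed replicate 1 or 3 or with the H9 libraries alone (adjusted p = 0.0687 to 0.0831), and in the libraries labelled RUES2 in 7 of 21, without any 1 of its 6 libraries or with an equal sum without short RNAs (adjusted p = 0.0512 to 0.105).

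The stress-inducible HSP70 pair HSPA1A and HSPA1B fell in naive H9. HSPA1A had 12, 11.3 and 20.4 FPKM in naive H9 and 23.6, 26.3 and 26.4 FPKM in primed H9, a difference of −0.81 ± 0.19 (limma adjusted p = 0.00606). In libraries labelled RUES2 it had 20.5, 25.1 and 18.3 FPKM in naive and 20.8, 22.3 and 23.4 FPKM in primed cells, with overlapping groups and a difference of −0.07 ± 0.19 (adjusted p = 0.80). HSPA1B, its near-identical neighbour, fell by 0.87 in naive H9, and HSPA1L, which lies beside both, fell by 0.68. The difference between the lines was not called for HSPA1A (0.74 ± 0.27, adjusted p = 0.14). How the reads of these copies were divided was not given, so the 3 genes do not count as separate observations. HSPA1L's call was lost without naive H9 replicate 1 or 2 or primed H9 replicate 3, and with the H9 libraries alone (adjusted p = 0.0685 to 0.0872).

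Of 13 tested ER members, 6 were higher and 1 lower in naive H9 (53.8% called, against 44.3% of all genes), and 5 higher and 2 lower in naive libraries labelled RUES2 (53.8%, against 46.8%). The count of 5 was 3 without naive or primed RUES2 replicate 1, and that of 2 was 1 without naive or primed RUES2 replicate 2. The count of 1 lower in H9 was 0 without naive or primed H9 replicate 2, naive H9 replicate 1 or 3, or naive RUES2 replicate 1 or 2. HSPA5 (BiP), the HSP70 of the ER, had 229.7, 232 and 221 FPKM in naive H9 and 174, 163 and 112 FPKM in primed H9. It had 258, 213 and 240.1 FPKM in naive and 155, 133 and 187 FPKM in primed libraries labelled RUES2. No naive library fell below a primed one. HSPA5 was higher by 0.63 ± 0.17 (limma adjusted p = 0.0111) and 0.59 ± 0.17 (adjusted p = 0.0143), and the second call was lost without naive replicate 1 or primed replicate 2 of RUES2 (adjusted p = 0.0523 and 0.0544).

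DNAJB11, a luminal J-protein that works with BiP, had 64.6, 59.7 and 63.5 FPKM in naive H9 and 39.3, 44.7 and 28.6 FPKM in primed H9. In libraries labelled RUES2 it had 58.6, 50.6 and 58.7 FPKM in naive and 31.9, 37.9 and 43.4 FPKM in primed cells. The groups did not overlap in either comparison, and DNAJB11 was higher by 0.74 ± 0.15 (limma adjusted p = 0.00326) and 0.56 ± 0.15 (adjusted p = 0.0127, or 0.0531 without primed RUES2 replicate 1). DNAJC3 (p58IPK), an ER J-protein that binds misfolded clients, had 9.41, 8.81 and 8.03 FPKM in naive and 6.18, 5.75 and 5.53 FPKM in primed H9, and 9.06, 7.26 and 9.03 FPKM in naive and 5.85, 5.64 and 6.53 FPKM in primed libraries labelled RUES2. Its differences were 0.51 ± 0.10 (adjusted p = 0.00202) and 0.43 ± 0.10 (adjusted p = 0.00514). DNAJC1, a J-protein of the ER membrane, had 9.84, 10.1 and 9.21 FPKM in naive and 6.28, 8.11 and 6.64 FPKM in primed H9, and 11, 11.5 and 13.5 FPKM in naive and 7.18, 6.05 and 7.83 FPKM in primed libraries labelled RUES2. No groups of DNAJC1 overlapped within a comparison, and its differences were 0.42 ± 0.12 (adjusted p = 0.0133, or 0.05001 without primed H9 replicate 1) and 0.70 ± 0.12 (adjusted p = 0.000781). DNAJB12, another J-protein of the ER membrane, had 8.94, 9.34 and 8.99 FPKM in naive and 6.8, 6.38 and 5.59 FPKM in primed H9, and 8.53, 8 and 8.87 FPKM in naive and 6.95, 7.35 and 6.5 FPKM in primed libraries labelled RUES2. It was higher by 0.48 ± 0.08 (adjusted p = 0.000978) and 0.26 ± 0.08 (adjusted p = 0.0246). The second of these was lost in 6 of 21 alternatives (adjusted p = 0.0507 to 0.138), among them leaving out naive replicate 1 or 3 or primed replicate 1 or 3 of RUES2.

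Other ER members moved differently. HSP90B1 (GRP94), the HSP90 of the ER, had 444, 437 and 427 FPKM in naive H9 and 400.5, 356 and 369.7 FPKM in primed H9, and 458, 399 and 432 FPKM in naive and 375, 306 and 397 FPKM in primed libraries labelled RUES2. Its groups did not overlap, yet the differences of 0.22 ± 0.10 (limma adjusted p = 0.103) and 0.26 ± 0.10 (adjusted p = 0.0528) were not called with the settings used throughout, and HSP90B1 passed in some alternatives as given above. DNAJC18, an ER membrane J-protein, went the other way, with 4.23, 3.96 and 3.97 FPKM in naive and 5.73, 5.21 and 4.55 FPKM in primed H9. It had 2.63, 2.68 and 3.03 FPKM in naive and 5.37, 5.1 and 4.28 FPKM in primed libraries labelled RUES2. DNAJC18 fell by 0.28 ± 0.10 in naive H9 (adjusted p = 0.0416) and by 0.64 ± 0.10 in naive libraries labelled RUES2 (adjusted p = 0.000522). Its H9 call was lost in 12 of 21 alternatives (adjusted p = 0.0503 to 0.138), which included the 3 without a naive H9 library and those without replicate 1 or 2 of primed H9 or of naive RUES2. DNAJC16 was higher in naive H9 only by call (0.39), and DNAJB14 lower in naive libraries labelled RUES2 only by call (−0.37, lost without naive or primed RUES2 replicate 2 at adjusted p-values of 0.0523 and 0.0526).

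Of 10 tested mitochondrial members, 4 were higher and 2 lower in naive H9 (60% called, against 44.3% of all genes), and 5 higher and 1 lower in naive libraries labelled RUES2 (60%, against 46.8%). The 2 lower in H9 became 1 without any naive H9 library or primed H9 replicate 1 or 2. The 5 became 2 without replicate 1 or 2 of naive or primed RUES2, and 3 without naive H9 replicate 1. DNAJC15, a J-protein of the inner membrane that is known to restrain respiratory complex I, had the largest rise of all members in H9, with 38.6, 34.3 and 42 FPKM in naive and 11.5, 11.3 and 10.5 FPKM in primed H9. It had 23.7, 14.2 and 23.3 FPKM in naive and 10.5, 11.8 and 7.96 FPKM in primed libraries labelled RUES2. It was higher in every naive library than in any primed one within a comparison, by 1.70 ± 0.19 (limma adjusted p = 6.49e-05) and 0.93 ± 0.19 (adjusted p = 0.00234). HSPA9 (mortalin), the HSP70 that pulls imported proteins into the matrix, had 186, 197 and 185 FPKM in naive and 145, 161 and 125 FPKM in primed H9, and 195, 195 and 184 FPKM in naive and 156, 149 and 173 FPKM in primed libraries labelled RUES2. The groups were apart in both comparisons, with differences of 0.40 ± 0.09 (adjusted p = 0.0056) and 0.27 ± 0.09 (adjusted p = 0.0363). The second call was lost in 9 of 21 alternatives (adjusted p = 0.0506 to 0.113), including each left-out naive RUES2 library, primed RUES2 replicate 1 or 2 and naive H9 replicate 1 or 3.

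The chaperonin pair, whose genes lie head to head on chromosome 2, was called in the libraries labelled RUES2 alone. HSPD1 had 534, 559 and 509.6 FPKM in naive and 518, 524 and 490.2 FPKM in primed H9, and 613, 713 and 555 FPKM in naive and 471, 422 and 563 FPKM in primed libraries labelled RUES2. HSPE1, its lid, had 323, 357 and 320.4 FPKM in naive and 299, 302 and 287 FPKM in primed H9, and 368, 401 and 343 FPKM in naive and 303, 246 and 343 FPKM in primed libraries labelled RUES2. HSPD1 overlapped between states in both comparisons. Its difference was 0.06 ± 0.12 in H9 (limma adjusted p = 0.689) and 0.37 ± 0.12 in libraries labelled RUES2 (adjusted p = 0.0248), and HSPE1's was 0.17 ± 0.11 (adjusted p = 0.253) and 0.33 ± 0.11 (adjusted p = 0.0363). Neither differed between lines by test (interaction adjusted p = 0.325 and 0.62). The HSPD1 call was lost in 5 of 21 alternatives (adjusted p = 0.0538 to 0.0894) and that of HSPE1 in 9 of 21 (adjusted p = 0.0514 to 0.116), both without naive or primed RUES2 replicate 1 or 2, and that of HSPE1 also without naive H9 replicate 1. The 2 loci overlap by 278 bases on hg19, and strand was not given for the counting, so reads there cannot be assigned with certainty.

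Among J-proteins of the cytosol and nucleus, DNAJA1, a main partner of HSPA8, had 196, 195 and 221 FPKM in naive and 141, 183 and 103 FPKM in primed H9. In libraries labelled RUES2 it had 176, 181 and 173 FPKM in naive and 117, 129 and 138 FPKM in primed cells. It was higher by 0.55 ± 0.17 (limma adjusted p = 0.0208) and 0.46 ± 0.17 (adjusted p = 0.0414). The H9 call was lost without naive H9 replicate 3 and with the H9 libraries alone (adjusted p = 0.0719 to 0.0778), and the other in 13 of 21 alternatives (adjusted p = 0.0517 to 0.126), among them leaving out any library other than primed H9 replicate 2 or 3. DNAJC9, a histone chaperone that recruits HSP70 to histones H3 and H4, had 71.9, 71.7 and 64.5 FPKM in naive and 49, 49.1 and 33.8 FPKM in primed H9, and 58.9, 57.4 and 63.6 FPKM in naive and 44.2, 47.8 and 44 FPKM in primed libraries labelled RUES2. Its groups were apart in both comparisons, with differences of 0.66 ± 0.13 (adjusted p = 0.00204) and 0.40 ± 0.13 (adjusted p = 0.0266). The second call was lost in 5 of 21 alternatives (adjusted p = 0.0565 to 0.088), an equal sum without short RNAs and leaving out naive replicate 1 or 3 or primed replicate 1 or 3 of RUES2.

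DNAJB6, which keeps polyglutamine proteins from aggregating and is the most abundant DNAJB, ran opposite to DNAJA1. It had 86.3, 95.6 and 94.1 FPKM in naive and 128, 105 and 147 FPKM in primed H9, and 93.9, 78.3 and 82.8 FPKM in naive and 164, 98.2 and 154 FPKM in primed libraries labelled RUES2. Every naive library lay below every primed one within a comparison. The difference was −0.44 ± 0.18 in H9 (limma adjusted p = 0.0714) and −0.67 ± 0.18 in libraries labelled RUES2 (adjusted p = 0.0125, or 0.0519 without primed RUES2 replicate 1). DNAJB5, a J-protein close to DNAJB1, had 13.9, 15.3 and 15.2 FPKM in naive and 21.3, 22.1 and 18.3 FPKM in primed H9, and 9.01, 8.53 and 10.7 FPKM in naive and 16.6, 11.9 and 19.9 FPKM in primed libraries labelled RUES2. It fell by 0.45 ± 0.16 in naive H9 (adjusted p = 0.0414) and by 0.69 ± 0.16 in naive libraries labelled RUES2 (adjusted p = 0.00496). The H9 call was lost in 9 of 21 alternatives (adjusted p = 0.0509 to 0.117), including those without any of the naive H9 libraries in turn, without replicate 1 or 2 of primed H9, and without replicate 1 of naive or primed RUES2. DNAJC17, a J-protein of the splicing machinery, had 9.58, 10.2 and 10.8 FPKM in naive and 14, 11.8 and 13.7 FPKM in primed H9, and 11.8, 11.6 and 10.9 FPKM in naive and 17.4, 14.4 and 15.6 FPKM in primed libraries labelled RUES2. It fell by 0.34 ± 0.09 (adjusted p = 0.0117, or 0.0502 without naive H9 replicate 1) and 0.43 ± 0.09 (adjusted p = 0.0029). Its locus overlaps those of ZFYVE19 and C15orf62, and 20 members in all share bases with another locus on hg19, which leaves some uncertainty in their values. DNAJC8, a splicing J-protein and the most abundant DNAJC, had 95.4, 102 and 99.5 FPKM in naive and 74.8, 94.5 and 75.9 FPKM in primed H9, and 93.8, 90.7 and 92 FPKM in naive and 87.9, 83.7 and 91.8 FPKM in primed libraries labelled RUES2. Its call in H9 (0.28 ± 0.09, adjusted p = 0.0244) was lost in 5 of 21 alternatives (adjusted p = 0.0657 to 0.0885), with the H9 libraries alone or without naive replicate 2 or 3 or primed replicate 1 or 3 of H9.

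The HSPB genes were mostly low, and none of the 5 tested was called in H9 by limma, nor at an unadjusted p under 0.05. HSPB11 (35.9 FPKM on average) is among these 5 by its symbol alone. HSPB1 (HSP27), a stress-inducible holdase and the most abundant of them, had 101, 108 and 129 FPKM in naive and 87.9, 89 and 94.2 FPKM in primed H9. It had 127, 116 and 179 FPKM in naive and 106, 86.1 and 95 FPKM in primed libraries labelled RUES2. Naive values lay above primed ones in both comparisons, with differences of 0.31 ± 0.15 (limma adjusted p = 0.129) and 0.53 ± 0.15 (adjusted p = 0.0156, or 0.0555 without primed RUES2 replicate 2). HSPB2 and HSPB6 fell in naive libraries labelled RUES2, by 1.60 and 0.82, at 1.33 to 48.2 and 3 to 33.4 fragments per library as estimated from those bounds, so these 2 values rest on few reads. HSPB6 reached 1 FPKM only in the 3 primed libraries labelled RUES2 (1.27, 1 and 1.13 FPKM). It was tested only because of the group where it is high, so its call against that group is a description and no support. HSPB8, the partner of BAG3, averaged 5.62 ± 1.1 FPKM in naive and 3.45 ± 0.677 FPKM in primed H9 and was not called in either comparison. HSF1, whose activity is set mainly after translation, had 24, 25.6 and 26.1 FPKM in naive and 24.1, 25 and 22.2 FPKM in primed H9, and 26.9, 30 and 27.8 FPKM in naive and 24.6, 23.8 and 24.4 FPKM in primed libraries labelled RUES2. It overlapped in H9 (0.09 ± 0.07, adjusted p = 0.323) and was higher by 0.21 ± 0.07 in naive libraries labelled RUES2 (adjusted p = 0.0248), a call lost in 5 of 21 alternatives (adjusted p = 0.051 to 0.118), without naive replicate 2 or any primed library of RUES2, or with an equal sum without short RNAs. Taking 14 tested heat-inducible members as a list, 3 were higher and 3 lower in naive H9 (42.9% called, against 44.3% of all genes), and 7 higher and 1 lower in naive libraries labelled RUES2 (57.1%, against 46.8%). The 3 lower in H9 were DNAJB4 and the near-identical HSPA1A and HSPA1B, which are not separate observations. The 7 higher were BAG3, DNAJA1, HSPA8, HSPB1, HSPD1, HSPE1 and HSPH1. HSPD1 and HSPE1 are also counted among the mitochondrial members, and HSPA8 is the constitutive HSP70 named above. The count of 7 fell to 1 without primed RUES2 replicate 2, to 2 without naive or primed RUES2 replicate 1 and to 4 without naive RUES2 replicate 2, and the 1 lower to 0 without primed RUES2 replicate 1. A further list of 8 immediate early genes, 7 of them tested, had 1 higher and 2 lower in each comparison, and summed to 41.3 to 58.5 FPKM in naive and 63.3 to 99.4 FPKM in primed H9.

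Of the 28 members called in 1 state comparison only, those of H9 alone were DNAJC11 (0.31), DNAJC16 (0.39), DNAJC30 (0.52), DNAJC7 (0.42) and DNAJC8 (0.28) on the higher side. On the lower side were HSPA12B (−1.03), HSPA1B (−0.87), HSPA1A (−0.81), HSPA1L (−0.68), DNAJC4 (−0.60), DNAJB4 (−0.25) and DNAJC19 (−0.19). In the libraries labelled RUES2 alone, HSPA4L (1.86), DNAJC6 (0.61), DNAJA3 (0.61), HSPA8 (0.59), HSPB1 (0.53), DNAJC24 (0.50), HSPD1 (0.37), HSPE1 (0.33), DNAJC13 (0.26) and HSF1 (0.21) were higher. HSPA2 (−1.80), HSPB2 (−1.60), HSPB6 (−0.82), DNAJB6 (−0.67), DNAJC28 (−0.46) and DNAJB14 (−0.37) were lower there. HSPA2, an HSP70 known from testis, had 2.92, 1.61 and 3.81 FPKM in naive and 15, 6 and 17.7 FPKM in primed libraries labelled RUES2, and 5.71, 5.34 and 7.34 FPKM in naive and 5.33, 3.62 and 11.5 FPKM in primed H9. Its groups were apart in the libraries labelled RUES2 and overlapped in H9, and the difference between the lines was not called (limma adjusted p = 0.114). The values in parentheses are log2 differences, and a call in 1 comparison alone does not show that the lines differ. Not called in either were 22 members, among them the cytosolic DNAJB1 and DNAJA2, the ER genes DNAJB9 and DNAJC10 and the exchange factor HSPA4.

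The naive effect itself differed between the lines for 2 of 66 members (3.03%), against 5.7% of all genes. DNAJA4, a cytosolic J-protein close to DNAJA1, had 0.217, 0.105 and 0.157 FPKM in naive and 3.49, 2.66 and 3.39 FPKM in primed libraries labelled RUES2. It had 1.32, 1.53 and 1.69 FPKM in naive and 0.0264, 0.352 and 0.956 FPKM in primed H9. The order of the states was turned round between the line labels, with no overlap in either. DNAJA4 reached 1 FPKM in 6 libraries, those of naive H9 and of primed RUES2. It therefore passed the minimum only through the groups where it is high, so its calls are a description and no support. DNAJA4 fell by 1.85 ± 0.20 in naive libraries labelled RUES2 (limma adjusted p = 5.11e-05) and was higher by 0.85 ± 0.20 in naive H9 (adjusted p = 0.00594), a difference of −2.69 ± 0.28 between the lines (adjusted p = 0.00108). HSPA4L, an HSP110-type protein known from testis, had 9.73, 17 and 8.53 FPKM in naive and 3.11, 2.11 and 1.98 FPKM in primed libraries labelled RUES2, and 0.955, 1.01 and 1.19 FPKM in naive and 1.4, 1.59 and 2.41 FPKM in primed H9. The naive libraries labelled RUES2 stood above all others. HSPA4L was higher by 1.86 ± 0.23 there (adjusted p = 0.000129) and had a difference of −0.43 ± 0.23 in H9 (adjusted p = 0.151), so that the lines differed by 2.30 ± 0.33 (adjusted p = 0.00412). Both interaction calls held in each alternative that tested the gene. They involve the libraries whose line label did not match, and line and state cannot be told apart in them.

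**Figure D4:**
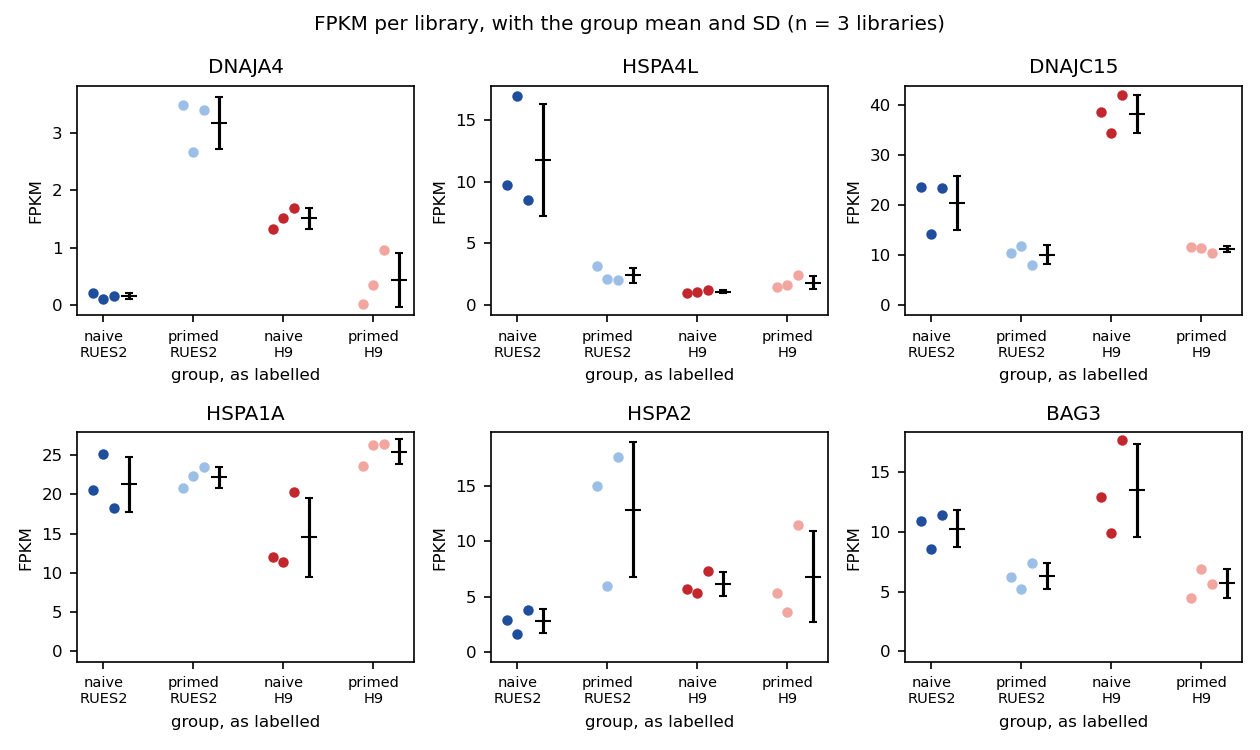
FPKM of 6 members in each library of the 4 groups as labelled, with the group mean and SD (n = 3) beside the points, on linear axes. DNAJA4 has its lowest group mean in naive libraries labelled RUES2 (0.16 FPKM) and HSPA4L highest there (8.53 to 17 FPKM), while BAG3 and DNAJC15 are higher in naive than in primed libraries under both line labels.

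Between the lines, the primed libraries differed in 1 of 66 members (1.52%), against 1.82% of all genes. This was DNAJA4, higher by 1.58 ± 0.20 in primed libraries labelled RUES2 than in primed H9 (limma adjusted p = 0.00414), and not called when these 2 groups were fitted alone (adjusted p = 0.141). DNAJA4 passed the minimum only through groups where it is high, so its line calls are a description and no support. The naive libraries differed in 7 members (10.6%), against 15.9% of all genes. This comparison rests on the mismatched libraries, so its calls are between labels and not shown to be between lines. HSPA4L (2.58 ± 0.23), DNAJC6 (0.87 ± 0.20), which uncoats clathrin vesicles in nerve cells, and DNAJA3 (0.39 ± 0.11), a J-protein of mitochondria, were higher in the naive libraries labelled RUES2. DNAJC6 had 2.31, 4.22 and 1.84 FPKM in the naive libraries labelled RUES2 and 1.06, 0.793 and 1.16 FPKM in naive H9, and DNAJA3 had 36, 43.5 and 31.7 FPKM in the naive libraries labelled RUES2 and 27.2, 26.4 and 30 FPKM in naive H9. The groups did not overlap for either gene. DNAJA4 (−1.11 ± 0.20), DNAJC15 (−0.91 ± 0.19) and DNAJB5 (−0.60 ± 0.16) were the lowest of the 4 that were lower there, the other being DNAJC18 (−0.42). The calls of HSPA4L, DNAJA4 and DNAJC15 held in each alternative that tested the gene. That of DNAJA3 was lost in 11 of 21 (adjusted p = 0.0502 to 0.122), including leaving out any naive H9 library or naive RUES2 replicate 1 or 2, that of DNAJC6 without naive H9 replicate 2 (adjusted p = 0.0609), and those of DNAJB5 (adjusted p = 0.0652 to 0.104) and DNAJC18 (adjusted p = 0.0506 to 0.0752) without any naive H9 library or naive RUES2 replicate 1 or 2. Over all genes the split of naive line calls was 1612 higher and 677 lower, and 1096 higher and 1356 lower with an equal sum without short RNAs. For members it was 3 higher and 4 lower, and 2 higher and 4 lower with that scaling.

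Other genes of the folding pathway, a list of 52 co-chaperones and folding factors that are no members, had 17 higher and 3 lower in naive H9 (38.5% called, against 44.3% of all genes) and 19 higher and 2 lower in naive libraries labelled RUES2 (40.4%, against 46.8%). The 17 became 11 without naive H9 replicate 1 and 10 without naive H9 replicate 2 or primed H9 replicate 3. Their medians were 0.17 and 0.16, against −0.01 and 0.01 over all genes. BAG2, which keeps the ubiquitin ligase CHIP from acting on HSP70 clients, led those higher in both, with 28.1 ± 2.37 FPKM in naive and 10.9 ± 2.18 FPKM in primed H9 and 27.3 ± 2.2 FPKM in naive and 10.4 ± 1.5 FPKM in primed libraries labelled RUES2. It was higher by 1.30 ± 0.14 (limma adjusted p = 5.57e-05) and 1.31 ± 0.14 (adjusted p = 5.11e-05). SIL1, the exchange factor of BiP, was higher by 0.71 (adjusted p = 0.021) and 1.17 (adjusted p = 0.00139), and BAG1, another exchange factor of HSP70, by 0.72 (adjusted p = 0.0108) and 0.86 (adjusted p = 0.00377). Lower in both were CDC37L1, which binds HSP90, by 0.40 and 0.49, and BAG4 by 0.21 and 0.41. The prefoldin subunit PFDN2 was the only one of the list whose naive effect differed between the lines (1.30 ± 0.25, adjusted p = 0.0153).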

How the data were processed

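Total RNA was extracted with TRIzol and made into libraries with an Illumina RNA kit, per the labels' protocols. The deposited FPKM were made by the authors and are tabulated per gene, per the file headers, although the design text speaks of RPKM. Per the submitters' processing notes, the tools included TopHat2 2.1.1, with bcl2fastq 2.17.1.14 named beside it, and the build was hg19. Not given in the sources used here were the program behind the FPKM, the annotation and the strandedness, and overlapping and antisense genes are therefore uncertain. Each of the 12 tables held 25278 entries of 23615 symbols. Of a symbol with several loci (554), the one with the highest mean was kept, and 2 symbols whose value was marked as failed were dropped. Low values did not give whole reads (40.6 to 43.7% within 0.05 of a whole number), so no count test was run, and depth limits low genes by an unknown amount.

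Genes that reached 1 FPKM in 3 or more libraries entered limma 3.58.1 (R 4.3.3) on log2(FPKM + 1), fitted with a mean per group over all 12 libraries, a variance trend, two-sided tests and Benjamini-Hochberg adjustment over all genes, called under 0.05. Comparisons were naive against primed within each line label, their difference, and RUES2-labelled against H9 within each state. The script was tested on simulated data. Python 3.11.15, pandas 2.3.3, numpy 2.4.6 and matplotlib 3.10.9 were used. No pair of libraries was identical. The members and lists were chosen with earlier results of these data known. Values per library were given for members called the same way in both state comparisons or for the difference between them, for the 3 highest and 3 lowest between lines, for the most abundant member of each family and for HSPD1, HSPE1, HSPH1, BAG3 and HSF1, and the rest by symbol or count. HSPA1A, HSPA1B, HSPA1L, HSPA2, HSPB2, HSPB6, HSPB8, HSP90AA1 and HSP90B1 were described beyond that rule after their values were seen. Alternatives were a pseudocount of 0.1, a 5 FPKM minimum, no minimum, scaling to an equal sum without short RNAs or by median ratios, a replicate block, the compared groups alone, no variance trend, summed loci and each library left out.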

Additional observations from a re-analysis of the deposited data

Results flagged for a closer look

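The naive effect differed between the line labels by the test of the difference itself for 2 members. For DNAJA4 the naive minus primed difference in libraries labelled RUES2 lay −2.69 on the log2 scale from that in H9 (limma adjusted p = 0.00108), at 0.305 to 213 fragments per library as estimated from the confidence bounds. For HSPA4L it lay 2.30 above that in H9 (adjusted p = 0.00412). Their values in each library stand in the report, and the libraries that did not match their line label enter both. DNAJA4 passed the 1 FPKM minimum only through the groups where it is high, so its calls are a description and no support.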

How the results depend on the processing

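No called member turned its direction in any of the alternatives that tested it. Called in each alternative that tested the gene were 16 of 28 members in H9, 15 of 32 in libraries labelled RUES2, 2 of 2 for the difference between lines, 0 of 1 between primed lines and 3 of 7 between naive lines. With a 5 FPKM minimum, which leaves out low members such as DNAJA4, HSPA12B, HSPB2, HSPB6 and DNAJC28, 6 in place of 10 were lower in naive H9, 6 in place of 10 lower in naive libraries labelled RUES2, 1 in place of 2 differed in naive effect and 0 in place of 1 between primed lines. Scaling to an equal sum without short RNAs gave 14 in place of 22 higher in naive libraries labelled RUES2. A pseudocount of 0.1 gave 4 in place of 2 for the naive effect, and the compared groups alone gave 0 in place of 1 between primed lines. The causes were not tested. Leaving out 1 library gave 4 to 11 members lower in naive H9, with 4, 5 and 6 without naive H9 replicate 1, 2 and 3. It gave 10 to 24 higher in naive libraries labelled RUES2, with 11 without naive replicate 1, 10 without primed replicate 1 and 12 without primed replicate 2. For the naive effect it gave 2 to 4, with 4 without naive H9 replicate 3 or primed RUES2 replicate 2. Between primed lines it gave 1 to 2, with 2 without primed H9 replicate 3 or primed RUES2 replicate 2 or 3. Between naive lines it gave 3 to 8, with 4 without naive H9 replicate 1, 3 without naive H9 replicate 2 and 4 without naive RUES2 replicate 1 or 2.

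The replicate numbers are shared between groups. Deviations of same-numbered libraries correlated at −0.0537 to 0.00752 in H9, where 0 of 3 pairs matched best, and at 0.00674 to 0.0825 in libraries labelled RUES2, where 3 of 3 did, a hint from the data and not the design, so the numbers were not taken to pair the libraries. With a replicate block, 18 members were higher and 8 lower in naive H9, 20 higher and 10 lower in naive libraries labelled RUES2, 3 differed in naive effect, 1 between primed and 7 between naive lines. Without read counts, the precision of low members is unknown.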
